A study of Homo sapiens with 18 samples.

Results

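Nucleotide excision repair is the pathway that removes platinum crosslinks within a DNA strand, and 10 of its genes were examined here out of 12853 genes in an RNA-seq table. The genes were chosen by symbol: ERCC1, ERCC2, ERCC3, ERCC4, ERCC5, ERCC6, XPA, XPC, DDB1 and DDB2, and all 10 were in the table. RNA was sequenced from 6 ovarian cancer cell lines with 3 libraries per line, 18 libraries in all. The lines form 3 pairs of a platinum-sensitive line and its resistant counterpart, and the comparison within each pair asks which genes differ in expression once resistance has been acquired. CP70 was made resistant in culture from the ovarian line A2780, whose labelled origin is endometrial or ovarian. PEA1 and PEA2 came from 1 patient with high-grade serous ovarian cancer, the first before platinum chemotherapy and the second at resistant relapse. PEO1 and PEO4 came from another such patient, PEO1 after platinum chemotherapy but before clinical resistance and PEO4 after it. PEO1 is therefore a sensitive line from a tumour that had already met platinum. All lines were grown in RPMI-1640 medium with 10% fetal bovine serum and 2 mM glutamine, and the labels of the RNA libraries name no drug treatment of the cultures, so the values are those of unexposed cultures as far as the labels say. Each pair is 1 derivation or 1 patient, and nothing in the labels says whether the 3 libraries of a line came from separate cultures, so p-values measure the spread between libraries, which may be technical.

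Excision repair starts with recognition of a distortion in the helix. XPC binds the undamaged strand opposite a lesion, and DDB2 with its partner DDB1 binds damage in chromatin and hands it on, while ERCC6 (the Cockayne syndrome protein CSB) acts where RNA polymerase II has stalled at a lesion in a transcribed strand. The TFIIH helicases ERCC2 (XPD) and ERCC3 (XPB) open the helix and XPA verifies the lesion. The nuclease ERCC1 with ERCC4 (XPF) cuts on one side of it, ERCC5 (XPG) cuts on the other, and polymerases and ligases fill the gap.

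The 10 genes changed in different directions and in different pairs, and 0 of 10 were called in all 3 pairs, where 12.7% of all genes were. In CP70, recognition and the ERCC5 nuclease fell: DDB2 was 2.61-fold lower and ERCC5 3.45-fold lower than in A2780, and XPC was 1.64-fold lower, while the helicases ERCC2 and ERCC3 were higher. In PEA2, ERCC6 was 5.46-fold and XPA 2.67-fold higher than in PEA1, and ERCC2 was 2.43-fold lower. In PEO4, DDB2 was 1.90-fold lower than in PEO1 and DDB1 1.20-fold higher. ERCC1 and ERCC4, which form the nuclease most often discussed with platinum response, did not pass the test in any pair.

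Depth limited the members unequally. The reads on listed genes ranged from 1344098 to 7067336 per library (median 2926659.5), with PEA1 the shallowest line at 1344098 to 1670866. Expression is given as the deposited log2 CPM (CPM being reads scaled to the size of the library, with 0.5 reads added before scaling). A difference between lines is given as log2FC, resistant minus sensitive, and a gene was called changed at an FDR below 0.05 (Benjamini-Hochberg adjusted p from limma over all 12853 genes). Whole reads could be recovered from 100% of the values. XPA rested on 3, 3 and 7 reads in the 3 PEA1 libraries and ERCC6 on 5, 11 and 12, and every other member had at least 9 reads in every library. Taking 3 reads as the floor, the smallest expression a library could show lay between 0.452 and 2.18 CPM. Libraries of the same line spread beyond counting noise, with a chi-square of 1.74 to 13.5 for each degree of freedom.

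Cell identity was checked on marker genes, and the lines stood far apart. Of 6 epithelial markers (EPCAM, KRT8, KRT18, KRT19, KRT7 and CDH1), 5 had at most 3 reads in every A2780 library, and the 6 together summed to 3.08 to 4.47 CPM. Their sum was 90.1 to 96.3 CPM in CP70, 156 to 204 in PEA1, 3744 to 3916 in PEA2, 4684 to 4925 in PEO1 and 3252 to 3677 in PEO4. All 5 ovarian serous markers (PAX8, WT1, MUC16, MSLN and SOX17) were at 3 reads or fewer in A2780 and 4 of 5 in CP70, whereas they summed to 286 to 392 CPM in PEA1 and 493 to 635 in PEA2. The defining markers of serous epithelium were thus absent or nearly absent from the A2780 pair. The serous sum was 2796 to 4057 CPM in PEO1 and 2825 to 4630 in PEO4, although SOX17 had at most 1 read there. PAX8 carried the serous sum in PEA1, at a mean log2 CPM of 8.35. The other PEA1 means were 2.64 for WT1, 1.30 for SOX17, 0.51 for MUC16 and -0.03 for MSLN. Of 5 leukocyte and 4 endothelial markers only PTPRC and CDH5 were in the table, and both exceeded 3 reads in PEA2 libraries alone, at 20.3 to 25.3 and 25.5 to 36.4 CPM. Of 5 fibroblast markers 4 were in the table, and their sum was 6.71 to 13.4 CPM in A2780, 51.0 to 57.5 in CP70, 366.9 to 448.9 in PEA1, 4.03 to 7.47 in PEA2, 3.92 to 7.69 in PEO1 and 15.01 to 17.99 in PEO4. COL1A1 carried the sum in PEA1, where the other 3 held 0 reads. The epithelial and fibroblast sums did not overlap between the lines of any pair, and the part of these markers in the members' changes was not tested. In bulk RNA, fewer cells of a type and less RNA per cell cannot be told apart.

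The promoters of the 3 members that fell most in CP70 are shown because their falls open the comparison below and because DDB2 is a known p53 target. Each window runs from 250 bases before to 50 bases after an annotated start (RefSeq, GRCh38.p14), 5′ to 3′ on the gene's strand, and capitals mark GC boxes (GGGCGG on either strand), CCAAT boxes (CCAAT on either strand) and p53 decamers. DDB2 has a pair of annotated starts, the upstream at chr11:47214204-47214503 and the downstream at chr11:47214724-47215023 (both + strand). XPC lies at chr3:14178552-14178851 (- strand) and ERCC5 at chr13:102845782-102846081 (+ strand).
DDB2 upstream start: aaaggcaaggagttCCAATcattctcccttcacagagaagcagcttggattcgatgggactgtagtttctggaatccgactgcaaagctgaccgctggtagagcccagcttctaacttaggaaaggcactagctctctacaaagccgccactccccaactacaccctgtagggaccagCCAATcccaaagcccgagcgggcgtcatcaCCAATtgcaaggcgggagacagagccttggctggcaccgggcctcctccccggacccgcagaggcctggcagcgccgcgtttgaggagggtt
DDB2 downstream start: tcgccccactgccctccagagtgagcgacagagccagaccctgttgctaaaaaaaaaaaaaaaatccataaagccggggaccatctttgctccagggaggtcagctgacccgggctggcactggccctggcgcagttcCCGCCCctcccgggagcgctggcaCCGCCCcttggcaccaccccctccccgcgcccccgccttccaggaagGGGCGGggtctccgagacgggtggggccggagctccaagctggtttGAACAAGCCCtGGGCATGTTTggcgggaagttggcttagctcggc
XPC: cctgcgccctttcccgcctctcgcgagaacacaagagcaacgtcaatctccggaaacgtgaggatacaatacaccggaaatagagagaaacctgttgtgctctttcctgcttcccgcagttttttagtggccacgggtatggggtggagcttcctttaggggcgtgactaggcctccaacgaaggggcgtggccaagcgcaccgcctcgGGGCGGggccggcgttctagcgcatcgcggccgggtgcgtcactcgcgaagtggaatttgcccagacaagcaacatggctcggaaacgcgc
ERCC5: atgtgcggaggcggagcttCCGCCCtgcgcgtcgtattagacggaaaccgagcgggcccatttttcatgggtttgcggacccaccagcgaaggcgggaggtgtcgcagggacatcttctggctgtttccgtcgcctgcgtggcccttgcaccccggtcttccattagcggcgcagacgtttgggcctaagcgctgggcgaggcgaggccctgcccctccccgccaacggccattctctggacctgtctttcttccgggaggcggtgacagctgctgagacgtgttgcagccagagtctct

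All 10 members matched the promoter table, with 14 windows between them. The p53 decamer, the unit of which a p53 response element holds a pair, was searched by name on both strands and was found in 1 of the 14 windows, the downstream DDB2 window, against 6.6% of all 35116 promoter windows. That window held 2 decamers, GAACAAGCCC and GGGCATGTTT, at bases 6 to 15 and 17 to 26 when the start is counted as base 1. A GC box was found in 9 of the 14 windows (45% of all promoters), a CCAAT box in 3 (34.6% of all promoters), and neither a TATA box (TATAAA, 11.5% of all promoters) nor a CRE (TGACGTCA, 1.8%) in any. A match describes the letters of a window and does not show that a factor binds there.

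Between A2780 and CP70, 2 members were higher and 4 lower at an FDR below 0.05, when 22.2% of all genes were higher and 17.7% lower. Called in either direction were 6 of 10 members, against 39.9% of all genes. The lines did not overlap in 7 members, against 54.6% of all genes, and no member passed the |log2FC| above 2 that the study used, which 9.06% of all genes did with an FDR below 0.05. A |log2FC| above 1 was reached by 2 of the called members, DDB2 and ERCC5, against 19.2% of all genes.

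**Figure D1:**
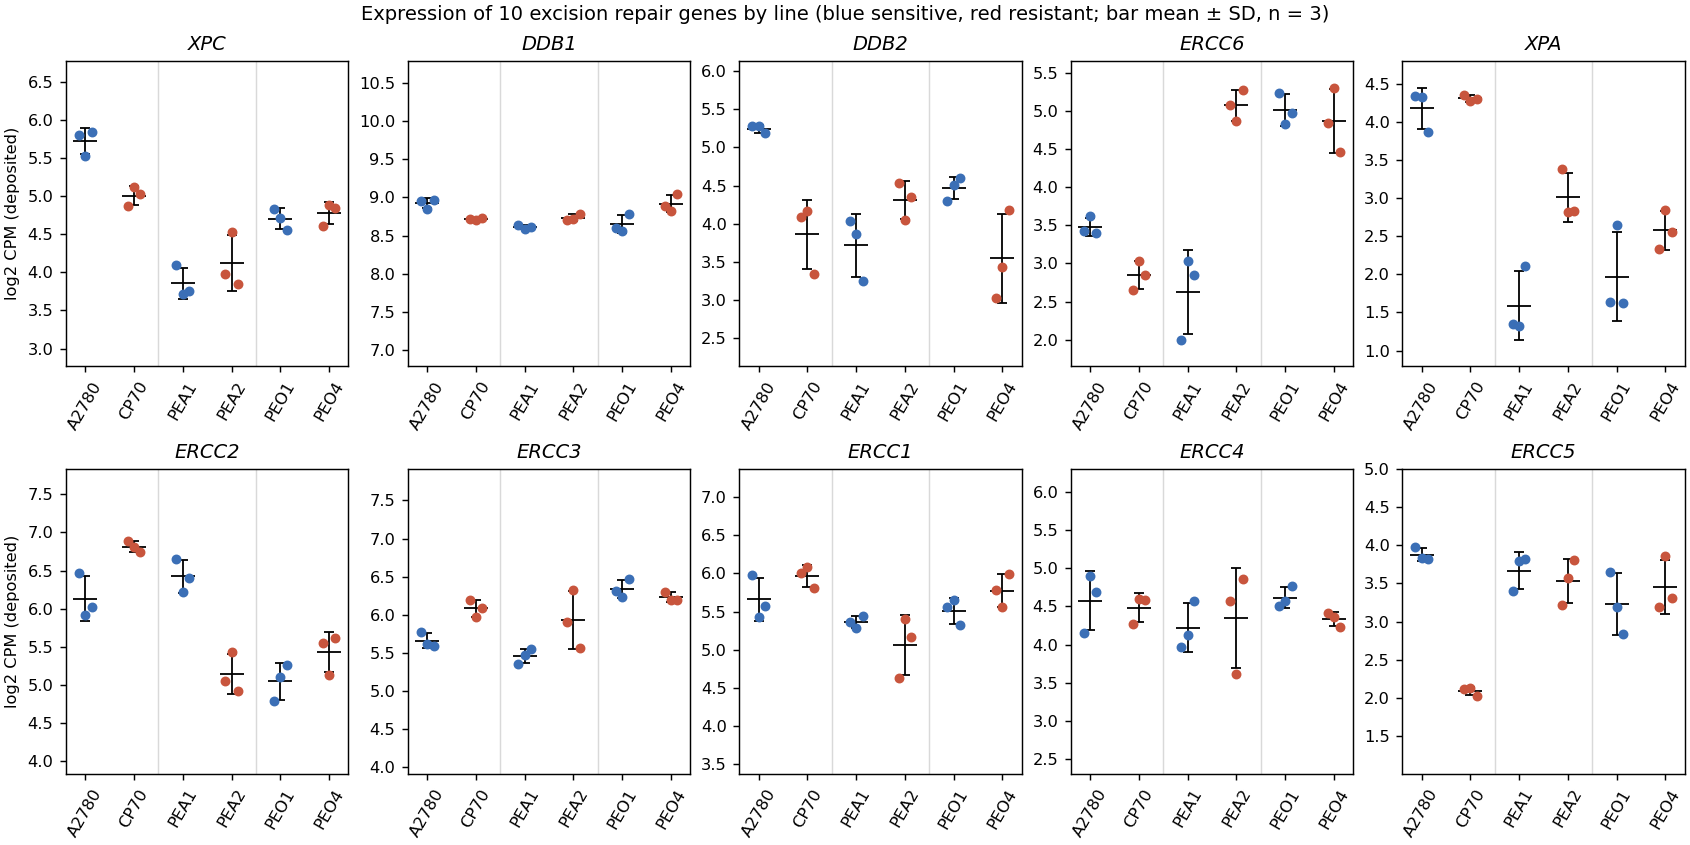
Each panel plots the deposited log2 CPM of 1 gene in the 18 libraries by line, with sensitive lines in blue, resistant lines in red, and black bars for the mean ± SD (n = 3); every panel spans at least 4 log2 units and panels have their own offset. ERCC5 drops in CP70 alone, ERCC6 is low in A2780, CP70 and PEA1 and high in the other lines, and DDB1 and ERCC4 stay within 0.31 and 0.39 between their lowest and highest line means.

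DDB2, at chr11:47236016-47260768 (+ strand, GRCh37), encodes the subunit of the UV-damaged DNA binding complex that contacts the lesion. Its log2 CPM was 5.28, 5.28 and 5.19 in the A2780 libraries and 4.08, 4.16 and 3.34 in those of CP70. Every CP70 library lay below every A2780 library, with 1 CP70 library well under the other two. The log2FC was -1.39 (SE 0.28, FDR 0.000416), a fall to 38.3% of the A2780 level. In the PEO pair DDB2 was 4.30, 4.51 and 4.60 in PEO1 and 3.02, 3.44 and 4.17 in PEO4, again without overlap but with a wide spread in PEO4. That log2FC was -0.92 (SE 0.28, FDR 0.0110), and it missed the threshold without PEO4 replicate 1, the lowest library (log2FC -0.66, FDR 0.0799). In the PEA pair the value went the other way, from 4.03, 3.87 and 3.25 in PEA1 to 4.54, 4.05 and 4.35 in PEA2 (log2FC 0.60, 95% interval 0.02 to 1.17, FDR 0.0692), and the call was not made; it was made without PEA1 replicate 1 (log2FC 0.75, FDR 0.0407) and without PEO4 replicate 3 (FDR 0.0424). The change in the A2780 pair differed from that in the PEA pair by -1.98 (FDR 0.000256), and the change in the PEA pair from that in the PEO pair by 1.52 (FDR 0.00275). A2780 held the highest DDB2 of the 6 lines, 0.78 above PEO1 (FDR 0.0167), and no neighbouring steps among the other 5 lines passed the test.

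XPC, at chr3:14186647-14220121 (- strand, GRCh37), encodes the sensor that starts repair across the whole genome. It fell in CP70, from 5.80, 5.53 and 5.83 in A2780 to 4.87, 5.12 and 5.02, with no overlap (log2FC -0.71, SE 0.18, FDR 0.00353). PEA1 libraries held 4.09, 3.72 and 3.76 and PEA2 libraries 3.98, 4.53 and 3.85, which overlapped (log2FC 0.26, FDR 0.218). The values of 4.84, 4.72 and 4.56 in PEO1 and 4.61, 4.88 and 4.84 in PEO4 also overlapped (log2FC 0.07, 95% interval -0.31 to 0.45). The fall in CP70 differed from the change in the PEA pair by -0.98 (FDR 0.00320) and from that in the PEO pair by -0.79 (FDR 0.0140). Even after its fall, CP70 stood above both PEA lines, whose means were 3.86 and 4.12. The order from PEA1 through PEA2, PEO1, PEO4 and CP70 to A2780 had 2 steps that passed the test, PEA2 to PEO1 (0.58, FDR 0.00808) and CP70 to A2780 (0.71, FDR 0.00353). Reads of XPC could not be separated by position from those of the antisense RNA XPC-AS1, whose exons cover 24.6% of the XPC exon bases and which was not in the table, and the strand setting of the counting is not given in the sources used here.

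DDB1, at chr11:61066923-61110068 (- strand, GRCh37), is the adaptor that joins DDB2 to the CUL4 ubiquitin ligase and has many other partners. It was the most highly expressed member per kilobase of exon in every line, at 4.66 to 4.97 log2 CPM per kb, and the least variable, with line means 0.31 apart. Its values were 8.95, 8.85 and 8.97 in A2780 and 8.71, 8.71 and 8.73 in CP70, a small difference without overlap (log2FC -0.21, FDR 0.0459). That call was lost with quantile normalization (-0.15, FDR 0.111), without the variance trend (FDR 0.0865), with 2 reads added (FDR 0.0511) and when any of 8 libraries was left out (A2780 replicate 1 or 3, any CP70 library, PEA1 replicate 3, PEO1 replicate 1 or PEO4 replicate 1, with FDR 0.0508 to 0.131). In the PEO pair DDB1 rose from 8.60, 8.56 and 8.79 to 8.89, 8.82 and 9.04 (log2FC 0.27, SE 0.08, FDR 0.0104), and this was lost without PEO1 replicate 2 (FDR 0.0571) or PEO4 replicate 3 (FDR 0.0720). The PEA pair gave 0.12 (FDR 0.195), and -0.12 with quantile normalization. The A2780 pair differed from the PEO pair by -0.48 (FDR 0.00141) and from the PEA pair by -0.33 (FDR 0.0191). Along the order of its line means, 1 neighbouring step passed the test, from PEA2 to PEO4 (0.18, FDR 0.0474). TKFC, whose exons on the opposite strand share 3.18% of the DDB1 exon bases, had log2FC values of -0.69, -0.24 and 0.25 in the A2780, PEA and PEO pairs (FDR 0.00306, 0.229 and 0.266).

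Between PEA1 and PEA2, 3 members were higher and 1 lower, when 32.5% of all genes were higher and 29.4% lower. Called in either direction were 4 of 10 members against 61.9% of all genes. The lines did not overlap in 6 members (62.6% of all genes), and 1 member, ERCC6, passed |log2FC| above 2 (14.1% of all genes). A |log2FC| above 1 was reached by 3 called members, ERCC6, XPA and ERCC2, against 33.6% of all genes.

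ERCC6, at chr10:50662214-50747584 (- strand, GRCh37), encodes the translocase that recognises stalled RNA polymerase II. Its log2 CPM was 2.00, 3.03 and 2.85 in PEA1, on 5 to 12 reads, and 5.08, 4.87 and 5.27 in PEA2, on 63 to 101 reads. The lines were more than a log2 unit apart at their closest (log2FC 2.45, SE 0.26, FDR 9.42e-08), and the call held under every alternative, with log2FC between 2.13 and 2.65. In PEO1 it was 5.24, 4.83 and 4.97 and in PEO4 4.84, 5.31 and 4.47, which overlapped (log2FC -0.14, 95% interval -0.68 to 0.40). A2780 held 3.43, 3.62 and 3.39 and CP70 2.66, 3.03 and 2.85, without overlap but short of the threshold (log2FC -0.63, FDR 0.0596). With the A2780 pair fitted alone (FDR 0.0430) or 2 reads added (FDR 0.0360) that difference passed, and likewise without PEA1 replicate 1 or replicate 2. The 6 lines fell into 2 sets. PEA1, CP70 and A2780 had means of 2.63, 2.85 and 3.48, and PEO4, PEO1 and PEA2 had means of 4.87, 5.01 and 5.07. The lower set was not 1 level, since PEA1 lay below A2780 (PEA1 minus A2780 -0.85, FDR 0.00630). The step from A2780 to PEO4 was 1.39 (FDR 7.5e-05), and no other neighbouring step passed the test. PEA2 thus lay 0.06 above PEO1 (FDR 0.840). The change in the PEA pair differed from that in the A2780 pair by 3.08 log2 units (written as the A2780 minus the PEA change, -3.08, FDR 6.83e-07) and from that in the PEO pair by 2.59 (FDR 6.15e-06).

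ERCC2, at chr19:45853095-45874176 (- strand, GRCh37), encodes the 5′ to 3′ helicase of TFIIH. It fell from 6.65, 6.22 and 6.40 in PEA1 to 5.06, 5.44 and 4.93 in PEA2, with no overlap (log2FC -1.28, SE 0.17, FDR 2.59e-06). In the A2780 pair it rose, from 6.46, 5.91 and 6.02 to 6.89, 6.80 and 6.74 (log2FC 0.68, SE 0.17, FDR 0.00380). The PEO pair had 4.79, 5.11 and 5.26 in PEO1 and 5.55, 5.14 and 5.61 in PEO4, which overlapped (log2FC 0.38, 95% interval 0.02 to 0.75, FDR 0.0858), and without PEO4 replicate 2 the difference passed (log2FC 0.53, FDR 0.0308). ERCC2 therefore changed in opposite directions in the A2780 and PEA pairs, and those changes differed by 1.96 (FDR 1.37e-06). The change in the PEA pair was also 1.66 lower than that in the PEO pair (PEA minus PEO -1.66, FDR 1.04e-05). Its lines were ordered almost as a mirror of ERCC6, with PEO1, PEA2 and PEO4 low (means 5.05, 5.14 and 5.43) and A2780, PEA1 and CP70 high (6.13, 6.42 and 6.81). The step between those sets, from PEO4 to A2780, was 0.70 (FDR 0.00128). Over the 6 line means the 2 genes had a Pearson r of -0.965, the most negative among the 45 pairs of members; this is a description over 6 lines, which share an origin within each pair, and it was singled out after its value was seen. KLC3, on the opposite strand, shares 7.71% of the ERCC2 exon bases and was not in the table.

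XPA, at chr9:100437191-100459622 (- strand, GRCh37), encodes the scaffold that checks the lesion and places the nucleases. In PEA1 it was close to the floor, at 1.35, 1.32 and 2.11 on 3, 3 and 7 reads, and in PEA2 it was 3.38, 2.82 and 2.83 on 15 to 24 reads. The lines did not overlap (log2FC 1.42, SE 0.32, FDR 0.000654), and with 2 reads added or any other alternative the log2FC lay between 1.09 and 1.68 and stayed past the threshold. PEO1 held 1.63, 2.65 and 1.63 and PEO4 2.33, 2.84 and 2.56, which overlapped through 1 PEO1 library (log2FC 0.61, 95% interval -0.05 to 1.27, FDR 0.136). Without that library, PEO1 replicate 2, the log2FC was 0.95 (FDR 0.0257), and with quantile normalization of all libraries it was 1.03 (FDR 0.0468). A2780 and CP70 had the highest XPA, 4.34, 4.32 and 3.86 against 4.35, 4.27 and 4.29, and did not differ beyond their spread (log2FC 0.13, 95% interval -0.53 to 0.79). XPA had the widest range of line means among the members, 2.71, and the only neighbouring step that passed the test ran from PEA2 to A2780 (1.17, FDR 0.00252). The change in the A2780 pair was 1.29 below that in the PEA pair (A2780 minus PEA -1.29, FDR 0.0199; -1.10 and FDR 0.0535 without PEA2 replicate 1). Over the 18 libraries, the genes most like XPA among 6318 with a mean above the median of the table were SRSF4 (Pearson r 0.948), SLC25A22 (0.933) and PPARGC1B (0.933), a description over libraries that fall into 6 lines.

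ERCC3, at chr2:128014866-128051742 (- strand, GRCh37), encodes the translocase of TFIIH that helps to unwind DNA at the lesion. It rose in PEA2, from 5.36, 5.48 and 5.55 to 5.91, 6.32 and 5.56, a gap of 0.01 between the closest libraries (log2FC 0.47, SE 0.14, FDR 0.00767). It also rose in CP70, from 5.77, 5.62 and 5.59 to 6.20, 5.97 and 6.09 (log2FC 0.43, SE 0.14, FDR 0.0218). The first call was lost with the PEA pair fitted alone (FDR 0.0635) and without PEA2 replicate 2 (log2FC 0.27, FDR 0.0704), and the second without A2780 replicate 2 or 3 or CP70 replicate 1 or 3 (FDR 0.0542 to 0.0902). In the PEO pair ERCC3 was 6.32, 6.23 and 6.47 against 6.30, 6.19 and 6.19, which overlapped (log2FC -0.11, 95% interval -0.41 to 0.19). The A2780 and PEA pairs differed from the PEO pair by 0.54 (FDR 0.0300) and 0.58 (FDR 0.0201). No neighbouring lines in its order of levels differed beyond their spread.

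Between PEO1 and PEO4, 1 member was higher and 1 lower, when 19.6% of all genes were higher and 21.9% lower. Called in either direction were 2 of 10 members, DDB1 and DDB2, against 41.5% of all genes. The lines did not overlap in 3 members, against 57.5% of all genes, and no member passed |log2FC| above 2 (6.22% of all genes) or above 1 (18.8%).

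**Figure D2:**
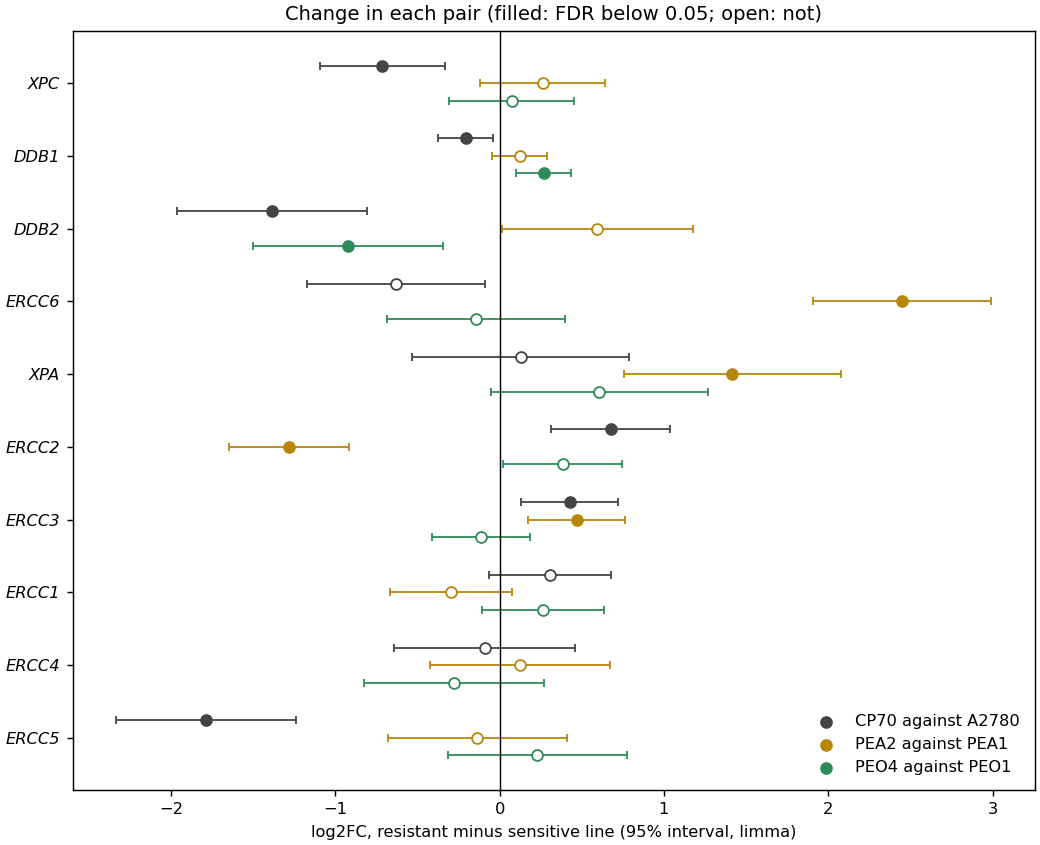
Each point is the log2FC of a member in 1 pair, resistant minus sensitive line, with its 95% interval from limma; filled points passed an FDR below 0.05 and open points did not. ERCC6 at 2.45 in the PEA pair and ERCC5 at -1.79 in the A2780 pair are the extremes, ERCC2 lies on opposite sides of 0 in those pairs, and all intervals of ERCC1 and ERCC4 cover 0.

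The incision nucleases moved in 1 case alone. ERCC5, at chr13:103498181-103528345 (+ strand, GRCh37), encodes the endonuclease that cuts 3′ of the lesion. It was 3.98, 3.84 and 3.82 in A2780 on 31 to 56 reads and 2.12, 2.13 and 2.03 in CP70 on 15 to 26 reads, with little spread within either line and no overlap. The log2FC of -1.79 (SE 0.26, FDR 1.20e-05) corresponds to 29.0% of the A2780 level, and it lay between -1.82 and -1.56 under every alternative. PEA1 held 3.40, 3.80 and 3.82 and PEA2 3.22, 3.58 and 3.80 (log2FC -0.14, 95% interval -0.68 to 0.41). The PEO lines, at 3.65, 3.19 and 2.84 and at 3.20, 3.86 and 3.31, overlapped too (log2FC 0.23, 95% interval -0.32 to 0.77). The fall in CP70 differed from the changes in the PEA and PEO pairs by -1.65 (FDR 0.000817) and -2.02 (FDR 0.000116), and CP70 stood 1.13 below PEO1, the next line up (FDR 0.000693). The readthrough gene BIVM-ERCC5 shares 33.0% of the ERCC5 exon bases on the same strand and was not in the table, so reads in that shared part may have been assigned or dropped by the counting.

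ERCC1, at chr19:45910592-45982086 (- strand, GRCh37), is the non-catalytic partner that anchors the ERCC4 nuclease. Its log2 CPM was 5.98, 5.43 and 5.57 in A2780 and 6.01, 6.09 and 5.81 in CP70 (log2FC 0.31, 95% interval -0.06 to 0.68, FDR 0.185). PEA1 had 5.36, 5.28 and 5.44 and PEA2 4.63, 5.40 and 5.17 (log2FC -0.29, 95% interval -0.67 to 0.08, FDR 0.159). PEO1 had 5.56, 5.65 and 5.32 and PEO4 5.78, 5.56 and 5.99 (log2FC 0.26, 95% interval -0.11 to 0.64, FDR 0.255). The lines of every pair overlapped, and these intervals leave room for changes of up to 0.68 in size. Without PEA2 replicate 2 the fall in the PEA pair passed (log2FC -0.46, FDR 0.0377). POLR1G, which lies across ERCC1 on the opposite strand and shares 28.6% of its exon bases, had log2FC values of 0.23, -0.46 and -0.23 in the 3 pairs (FDR 0.449, 0.0795 and 0.447).

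ERCC4, at chr16:14013995-14046205 (+ strand, GRCh37), carries the active site of that nuclease and cuts 5′ of the lesion. Its line means ran from 4.22 in PEA1 to 4.61 in PEO1, and no neighbouring lines differed. The log2FC was -0.09 in the A2780 pair (95% interval -0.64 to 0.46), 0.12 in the PEA pair (-0.42 to 0.67) and -0.28 in the PEO pair (-0.83 to 0.27). In the PEO pair the libraries did not overlap, at 4.50, 4.57 and 4.77 against 4.41, 4.36 and 4.24, and the FDR was 0.431. A lncRNA on the opposite strand shares 14.1% of the ERCC4 exon bases and was not in the table.

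Across pairs, 4 members were called in 2 pairs (DDB1, DDB2, ERCC2 and ERCC3), 4 in 1 pair (XPC, ERCC5, ERCC6 and XPA) and 2 in none (ERCC1 and ERCC4). Calls with 1 direction in all 3 pairs were made for 2.80% of all genes. Of 30 tested differences between the changes of 2 pairs, 16 passed an FDR below 0.05 (adjusted over all genes and 3 contrasts): 8 of 10 members when the A2780 pair was set against the PEA pair (57.2% of all genes), 4 when it was set against the PEO pair (48.6%), and 4 when the PEA pair was set against the PEO pair (58.3%). At least 1 of the 3 contrasts passed for 9 members, and for 79.1% of all genes. In a model over all pairs with the pair and the sensitivity as terms, XPA was the 1 member called (log2FC 0.72, SE 0.23, FDR 0.0304), when 24.1% of all genes were called. That model treats the 3 libraries of a line as independent. With the 3 pair differences as the replicates, XPA gave the same log2FC with an unadjusted p of 0.234 in limma, and 0 of the 12853 genes were called. Leaving out PEA1 replicate 1 or 2, any PEA2 library or PEO1 replicate 1 left 0 members called, and leaving out PEA1 replicate 3 left 2.

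The sensitive lines also differed from each other, in 5 to 8 members per comparison against 2 to 6 within pairs. All genes showed the same contrast, with 68.1% to 72.0% called between sensitive lines and 39.9% to 61.9% within pairs. Relative to A2780, PEA1 had 5 members lower and 0 higher (71.9% of all genes differed), and PEO1 had 6 lower and 2 higher (72.0%). PEO1 had 4 members higher and 1 lower than PEA1 (68.1% of all genes differed). The widest gap was in XPA, which was lower in PEA1 than in A2780 (PEA1 minus A2780 -2.58, FDR 4.08e-07) and lower in PEO1 than in A2780 (PEO1 minus A2780 -2.21, FDR 3.13e-06). XPC was likewise lower in PEA1 (-1.86, FDR 1.64e-08) and in PEO1 (-1.01, FDR 4.90e-05). ERCC6 was 2.38 higher in PEO1 than in PEA1 (PEO1 minus PEA1 2.38, FDR 1.09e-07), about the size of its rise from PEA1 to PEA2. The order of all members by line had 50 neighbouring steps, and 8 of them passed the test.

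The rest of the excision repair machinery was described from a list of 39 genes in the table, of 40 listed, which are partners in recognition, partners in transcription-coupled repair, TFIIH, RPA and the gap-filling enzymes. In CP70, 6 were higher and 8 lower, in PEA2 18 were higher and 12 lower, and in PEO4 0 were higher and 11 lower. These are 14, 30 and 11 of 39 genes called in either direction (35.9%, 76.9% and 28.2%), against 39.9%, 61.9% and 41.5% of all genes. The shares of all genes higher and lower were 22.2% and 17.7% in CP70, 32.5% and 29.4% in PEA2, and 19.6% and 21.9% in PEO4. The median log2FC was -0.02, 0.16 and -0.20, against -0.02, 0.01 and -0.02 over all genes. The rises in CP70 were led by GTF2H5, the small stabilising subunit of TFIIH (0.84, FDR 0.0137), RBX1, the RING subunit of the CUL4 ligase (0.73, FDR 0.0315), and RPA2 of the single-strand binding complex (0.52, FDR 0.0199). The falls were led by CUL4A, the scaffold of the ligase that DDB1 and DDB2 join (-1.10, FDR 1.87e-09), GTF2H3 of TFIIH (-0.85, FDR 3.00e-06) and the clamp-loader subunit RFC1 (-0.74, FDR 3.32e-06). CUL4A, DDB1 and DDB2 were thus all lower in CP70 than in A2780, while RBX1 of the same complex was higher. CUL4B, also among the partners in recognition, was lower too (-0.64, FDR 4.39e-05). CUL4A lies on chromosome 13, where 41.6% of genes were lower in CP70, and CUL4B on chromosome X, where 18.3% were. The DDB1 call was lost under several alternatives, as given above, and whether these falls share a cause was not tested.

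TFIIH other than ERCC2 and ERCC3 had 4 of 7 genes higher and 1 lower in PEA2, when 32.5% of all genes were higher and 29.4% lower. CDK7, the kinase of the complex, rose from a mean of 3.12 in PEA1 to 5.51 (log2FC 2.39, FDR 6.86e-08), its cyclin CCNH rose by 1.54 (FDR 4.91e-09), GTF2H2 by 1.03 (FDR 8.06e-05) and the assembly factor MNAT1 by 0.52 (FDR 0.0171). ERCC2, which bridges that kinase module to the core, moved the opposite way. ERCC8, the substrate receptor that works with ERCC6 in transcription-coupled repair, rose with it in PEA2 (log2FC 1.70, FDR 7.73e-05), and had 0.01 in the PEO pair and -0.18 in the A2780 pair (FDR 0.976 and 0.679). CDK7, CCNH, GTF2H2 and ERCC8 lie on chromosome 5, where 54.6% of genes were higher in PEA2. GTF2H2 has near-identical copies, so its reads are uncertain. GTF2H3 was the 1 gene of the TFIIH and transcription-coupled lists called in all 3 pairs, with log2FC of -0.85, -0.38 and -0.42 (FDR 3.00e-06, 0.00608 and 0.00513).

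Gap filling and ligation had 18 genes, with 0 higher and 5 lower in CP70, 6 higher and 8 lower in PEA2, and 0 higher and 8 lower in PEO4. Read against the shares of all genes given for each pair above, the 6 rises in PEA2 are at the background share of 32.5%. Over the whole list of 39 genes, the largest falls in PEO4 were PCNA, the sliding clamp (-1.63, FDR 3.11e-11), CETN2, the small partner of XPC (-1.45, FDR 3.56e-07), and RFC4, a clamp-loader subunit (-1.22, FDR 6.26e-08). In PEA2 they were POLE, the catalytic subunit of polymerase epsilon (-1.24, FDR 3.18e-09), RPA2 (-1.16, FDR 8.18e-06) and XRCC1, the scaffold for ligase III (-1.01, FDR 0.000299). PCNA was also lower in CP70 (-0.52, FDR 9.06e-05) and PEA2 (-0.38, FDR 0.000970). POLE was also lower in CP70 (-0.31, FDR 0.0214) and PEO4 (-0.77, FDR 5.41e-06). CETN2 and RFC4 were instead higher in PEA2 (0.89 and 1.22, FDR 6.30e-05 and 2.35e-08). A list of 18 proliferation genes had 4 higher and 2 lower in CP70, 6 and 8 in PEA2, and 3 and 9 in PEO4, to be read against the same shares of all genes; its counts of rises in CP70 and PEA2 are at those shares. MKI67 had log2FC of 0.62, 0.28 and -0.23 (FDR 0.000234, 0.0467 and 0.124), and the largest changes were CDK1 in CP70 (-1.83), TYMS in PEA2 (-2.36) and MCM3 in PEO4 (0.81).

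**Figure D3:**
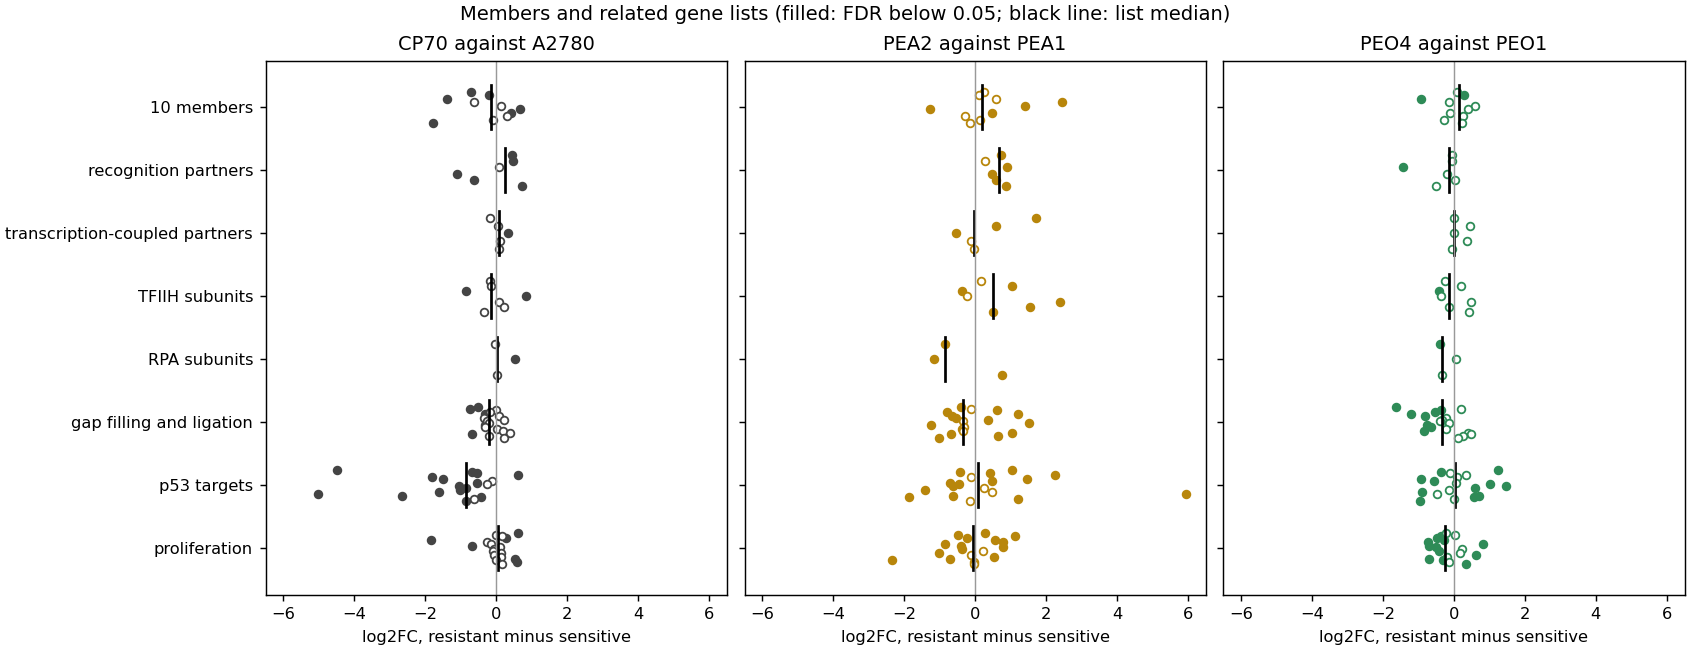
Each point is the log2FC of 1 gene, resistant minus sensitive line, with lists in rows, pairs in panels, filled points for an FDR below 0.05 and a black line for the list median. The p53 targets lie mainly left of 0 in CP70 (14 of 18 lower, median -0.86), and the list medians there are 0.07 in PEA2 and 0.02 in PEO4.

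DDB2 and XPC are both known to be induced by p53, so a list of p53 targets was read beside them; the list holds 18 genes in the table, of 20. In CP70, 14 of 18 were lower and 1 higher, when 17.7% of all genes were lower and 22.2% higher, with a median of -0.86 against -0.02 over all genes. CDKN1A, the cell-cycle inhibitor, fell by 4.48 on the log2 scale (FDR 3.09e-09), and MDM2, the ligase that degrades p53, by 0.68 (FDR 6.92e-06). GDF15 had the largest change (log2FC -5.03, FDR 3.19e-06), on at most 64 reads in A2780 and at most 6 in CP70. DDB2 and XPC moved in the direction of most of the list in that pair. In PEA2, 7 targets were higher and 7 lower (32.5% and 29.4% of all genes), GDF15 having the largest change again (log2FC 5.94, FDR 1.87e-07, at most 4 reads in PEA1), and CDKN1A rose by 1.05 (FDR 0.0169). In PEO4, 6 were higher and 5 lower (19.6% and 21.9% of all genes), FDXR having the largest change (log2FC 1.48, FDR 4.44e-05). CDKN1A rose there too (log2FC 1.25, FDR 0.00872), while DDB2 fell. MDM2 fell in the PEA and PEO pairs, by 0.44 and 0.35 (FDR 0.000484 and 0.00524). The fall of DDB2 therefore came with a fall of CDKN1A in the A2780 pair and with a rise of it in the PEO pair. Whether p53 has a part in these values was not tested.

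The genes around each member were read next, as the median log2FC of the genes in the table within 1 Mb on GRCh37. Around ERCC6, 6 of 7 neighbours were higher and 0 lower in PEA2, with a median of 1.10, against 32.5% of all genes higher. ERCC2 had 34 neighbours in that pair, 5 higher and 14 lower, with a median of -0.50, and its window overlaps that of the nearby ERCC1, whose 36 neighbours had a median of -0.55 (5 higher, 16 lower) while ERCC1 itself was at -0.29. Around ERCC5, 3 of 4 neighbours were lower in CP70, with a median of -1.09, and 41.6% of the 233 genes on chromosome 13 were lower, against 17.7% of all genes. The same 4 neighbours had a median of -1.09 in the PEA pair, where ERCC5 was at -0.14. The 25 neighbours of DDB2 had a median of 0.09 in CP70 (3 higher, 4 lower) and 0.05 in PEO4 (5 higher, 7 lower). The 13 neighbours of XPC had a median of 0.09 in CP70 and the 16 of XPA 0.08 in PEA2. In the PEA pair the 6 neighbours of ERCC4 had a median of 0.73 (3 higher, 1 lower), where ERCC4 was at 0.12. The 11 neighbours of ERCC3 had a median of -0.26 in PEA2 and -0.17 in CP70, where ERCC3 was at 0.47 and 0.43. The 21 neighbours of DDB1 had a median of -0.10 in CP70 and -0.09 in PEO4, where DDB1 was at -0.21 and 0.27. Copy number was not analysed here, and its part in these values was not tested.

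**Figure D4:**
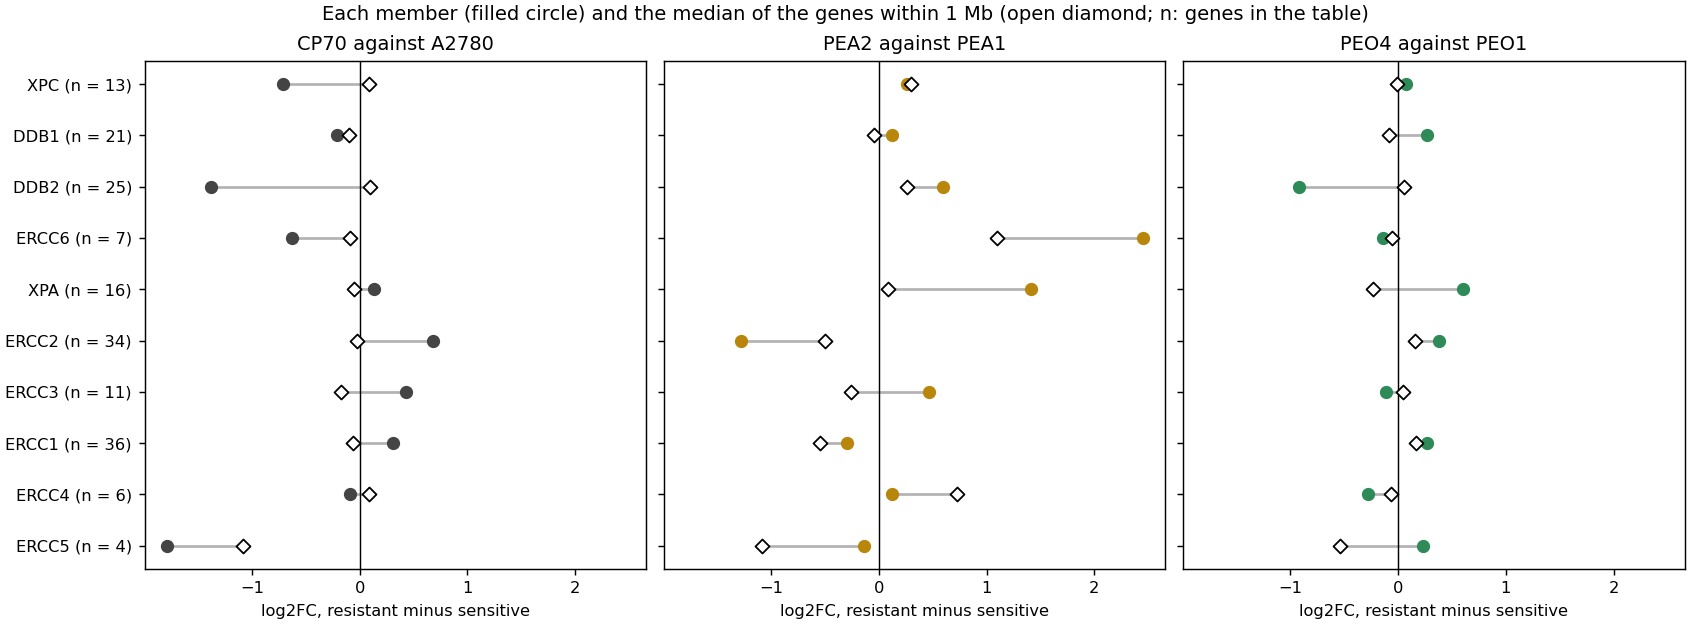
Filled circles are the log2FC of each member, diamonds the median log2FC of the genes within 1 Mb, and panels the 3 pairs on 1 axis; the number of neighbours stands beside each gene. ERCC6 and its neighbours lie on the same side in PEA2 (2.45 and 1.10), as do ERCC5 and its neighbours in CP70 (-1.79 and -1.09), whereas DDB2 lies far from its neighbours in CP70 (-1.39 and 0.09) and PEO4 (-0.92 and 0.05).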

How the data were processed

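RNA-seq was analysed for 18 libraries, 3 of each of 6 lines, from strand-marking libraries. The authors counted reads aligned to hg19 with featureCounts over known genes, normalized them with limma and deposited log2 CPM for 12853 genes after adding 0.5 reads per count. Bowtie2 is named in the submitters' processing notes. The strand setting and the filter on genes are not given in the sources used here. Adding 0.5 reads understates the change of genes with few reads. Reads were recovered from these values (tolerance 0.01 reads) to give depth, and the floors taken from them cover counting error only. The 95% intervals of log2FC came from limma and reflect the spread between libraries.

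Linear models were fitted to the deposited log2 values (limma 3.58.1, R 4.3.3), with a mean per line and a variance trend, over all genes (Benjamini-Hochberg). Differences between pairs were contrasts of the same fit. Alternatives were each pair alone, the replicate block, quantile normalization, genes with a mean log2 above 0 (355 removed), no variance trend, voom weights, 2 reads added, an FDR below 0.01, |log2FC| above 1 and leaving out each library. The calculations were tested on simulated data. Same-numbered libraries did not deviate together (r between -0.0354 and 0.0483), so the numbers were not taken as pairs.

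The members and lists were chosen with earlier results of these data known. Named were all members, the 3 largest rises and falls of the wider repair list in each pair, any TFIIH or transcription-coupled gene called in all pairs, CDKN1A, MDM2, MKI67, PCNA and the largest change of the p53 and proliferation lists, genes that overlap a member, and the 3 genes most like the member with the widest range. Other named genes were chosen after their values were seen. Exons and positions came from GENCODE on GRCh37, which matched 12642 identifiers and all 10 members and did not match 211. The ATAC-seq and platinum adduct data were not analysed here.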

Additional observations from a re-analysis of the deposited data

Results flagged for a closer look

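The change from the sensitive to the resistant line differed between pairs in 16 of 30 contrasts of the members (limma contrasts, FDR below 0.05 over all genes and 3 contrasts). The values are given as the log2FC of the first pair minus that of the second. For the A2780 pair minus the PEA pair these were -0.98 for XPC, -0.33 for DDB1, -1.98 for DDB2, -3.08 for ERCC6, -1.29 for XPA, 1.96 for ERCC2, 0.60 for ERCC1 and -1.65 for ERCC5. For the A2780 pair minus the PEO pair they were -0.79 for XPC, -0.48 for DDB1, 0.54 for ERCC3 and -2.02 for ERCC5. For the PEA pair minus the PEO pair they were 1.52 for DDB2, 2.59 for ERCC6, -1.66 for ERCC2 and 0.58 for ERCC3. ERCC1 was the closest to the threshold (FDR 0.0497) although no pair alone showed a change of it. Of the 16, 11 kept their call under every alternative run for these contrasts, all at the same threshold. The other 5 were DDB1, XPA and ERCC1 between the A2780 and PEA pairs and both ERCC3 differences. The ERCC1 call was lost for 15 of the 18 left-out libraries, the ERCC3 call between the A2780 and PEO pairs for 7 and that for the PEA pair minus the PEO pair for 2, and the XPA call for 1 (PEA2 replicate 1).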

How the results depend on the processing

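Of 30 changes of single members in a pair, 20 kept their call and 0 reversed a call under 7 alternative settings and 18 left-out libraries. Of the 12 called changes, 7 kept their call in all of these at an FDR below 0.05: XPC, DDB2, ERCC2 and ERCC5 in CP70 and ERCC6, XPA and ERCC2 in PEA2. The stricter thresholds are not among those settings, and XPC and ERCC2 in CP70 did not reach |log2FC| above 1. Members higher in CP70 numbered 2, but 1 at an FDR below 0.01, 0 at |log2FC| above 1 and 1 to 2 with a library left out (1 without A2780 replicate 2 or 3 or CP70 replicate 1 or 3). Members lower in CP70 numbered 4, but 5 with each pair fitted alone and 2 at |log2FC| above 1. They numbered 3 with quantile normalization, without the variance trend or at an FDR below 0.01, and 3 to 5 with a library left out. Members higher in PEA2 numbered 3, but 4 with the replicate block and 2 with each pair fitted alone or at |log2FC| above 1. With a library left out they numbered 2 to 4 (2 without PEA2 replicate 2, 4 without PEA1 replicate 1 or PEO4 replicate 3). Members lower in PEA2 numbered 1, and 1 to 2 with a library left out (2 without PEA2 replicate 2). Members higher in PEO4 numbered 1, but 2 with quantile normalization, 0 at an FDR below 0.01, 0 at |log2FC| above 1 and 0 to 2 with a library left out (0 without PEO4 replicate 3, 2 without PEO4 replicate 2). Members lower in PEO4 numbered 1, but 0 at an FDR below 0.01, 0 at |log2FC| above 1 and 0 to 1 with a library left out (0 without PEO4 replicate 1). Over 3 pairs together 1 member was called, but 0 with the 3 pair differences as replicates, 0 with the replicate block and 0 to 2 with a library left out. The replicate block, whose numbers do not pair the libraries, also brought DDB2 in the PEA pair past the threshold (FDR 0.0480). It lost the ERCC1 difference between the A2780 and PEA pairs (FDR 0.0663). Beyond these and the call over 3 pairs together, the block changed no call. Quantile normalization moved the median log2FC of all genes in the PEA pair from 0.01 to -0.10, and under it the DDB1 difference between the A2780 and PEA pairs was -0.03 (FDR 0.818). The cause of these changes was not tested. Depth limits XPA and ERCC6 in PEA1 most.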

Other observations

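In the PEA pair, the wider repair genes that lie on chromosome 5 moved together, a grouping made after their values were seen. All 5 of them were higher in PEA2, with log2FC of 2.39 for CDK7, 1.70 for ERCC8, 1.54 for CCNH, 1.04 for POLK and 1.03 for GTF2H2. In the A2780 and PEO pairs none of these 5 genes passed the limma test at an FDR below 0.05. Over the 595 genes on chromosome 5, the median log2FC in the PEA pair was 0.56, with 54.6% higher and 17.0% lower, against 32.5% and 29.4% of all genes. None of the 10 members lies on chromosome 5.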
